A study of Mus musculus with 4 samples.

Results

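Transcripts of 10 cytokine and growth factor genes that T cells are known to make (Ifng, Il2, Il4, Il5, Il10, Il13, Il17a, Il21, Csf2 and Areg) were followed in T cells that had been sorted, at 2 ages of the mouse, from meninges and from choroid plexus. The 10 were taken by name from the 31053 genes of the count matrices. Single-cell libraries were made with a 10x Genomics 5′ gene expression kit from female C57BL/6 mice, 10 weeks old for the young groups and 18 months old for the aged ones, with no genetic change or treatment in any group. Young meninges, young choroid plexus, then aged meninges, then aged choroid plexus gave 1 library each, pooled from the T cells of 5 mice, and 4 values given together follow that order. No spread between mice could therefore be measured, and no test was run. The intervals given are exact 95% intervals (Poisson for levels, Clopper-Pearson for shares, conditional for ratios) and cover counting error only. Those of levels and ratios treat each UMI as independent, so they are too narrow where a few cells hold most UMIs of a gene.

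These genes are the secreted output of T-cell subsets. Interferon-γ (Ifng) is the defining product of type 1 helper and cytotoxic T cells and activates macrophages, whereas Il4, Il5 and Il13 are made by type 2 helper cells, Il17a by type 17 cells, Il21 by follicular helper cells and Il10 by regulatory and other T cells. Il2 encodes the growth factor that activated T cells secrete and regulatory T cells consume, Csf2 encodes granulocyte-macrophage colony-stimulating factor, and Areg encodes amphiregulin, an epidermal growth factor receptor ligand that tissue regulatory T cells and type 2 lymphocytes make during repair. Interferon-γ, interleukin 4 and interleukin 17 have each been linked to the signalling of meningeal T cells to neurons in mice.

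In mm10 coordinates (GENCODE annotation), 3 type 2 genes and Csf2 lay on chromosome 11. Il4 (53602982 to 53618669) and Il13 (53631324 to 53634702) were 12.7 kb apart, Il5 (53720794 to 53725106) followed 86.1 kb further on and Csf2 (54247271 to 54249667) 522 kb beyond that. Il2 (37120523 to 37125959) and Il21 (37222759 to 37232636) were neighbours on chromosome 3 with 96.8 kb between them. Ifng was on chromosome 10 (118441046 to 118445892), Il17a (20730905 to 20734496) and Il10 (131019845 to 131024974) were on chromosome 1 and Areg was on chromosome 5 (91139599 to 91148432). All 10 are protein-coding.

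The 250 bases before the start site are shown for 4 genes, because Areg, Ifng and Il17a were the members that differed most between aged and young meninges and Il2 had a ratio just short of the same limit. They are RefSeq promoter windows of build GRCm38.p6, written 5′ to 3′ on the strand of the gene, and capitals mark matches on either strand to the NFAT core GGAAA (reverse TTTCC), the AP-1 element TGANTCA, the cyclic AMP response element TGACGTCA and the TATA box TATAAA (reverse TTTATA).
Areg (chr5:91139349-91139598, plus strand): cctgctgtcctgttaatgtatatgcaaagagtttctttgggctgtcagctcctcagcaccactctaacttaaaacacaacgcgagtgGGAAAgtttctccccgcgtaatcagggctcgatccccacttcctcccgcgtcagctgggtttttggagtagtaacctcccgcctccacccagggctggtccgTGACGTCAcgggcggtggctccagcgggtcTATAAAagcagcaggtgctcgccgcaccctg
Ifng (chr10:118440796-118441045, plus strand): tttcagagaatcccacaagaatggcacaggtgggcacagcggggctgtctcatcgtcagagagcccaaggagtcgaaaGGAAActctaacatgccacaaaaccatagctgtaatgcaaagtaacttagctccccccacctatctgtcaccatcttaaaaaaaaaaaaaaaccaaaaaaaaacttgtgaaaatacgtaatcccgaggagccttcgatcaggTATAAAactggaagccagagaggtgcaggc
Il2 (chr3:37125955-37126204, minus strand): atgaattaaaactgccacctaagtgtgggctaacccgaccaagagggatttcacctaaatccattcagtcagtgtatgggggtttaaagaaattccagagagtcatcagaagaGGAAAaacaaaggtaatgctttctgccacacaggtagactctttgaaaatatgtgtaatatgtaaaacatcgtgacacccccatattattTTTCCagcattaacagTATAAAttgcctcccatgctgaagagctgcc
Il17a (chr1:20730655-20730904, plus strand): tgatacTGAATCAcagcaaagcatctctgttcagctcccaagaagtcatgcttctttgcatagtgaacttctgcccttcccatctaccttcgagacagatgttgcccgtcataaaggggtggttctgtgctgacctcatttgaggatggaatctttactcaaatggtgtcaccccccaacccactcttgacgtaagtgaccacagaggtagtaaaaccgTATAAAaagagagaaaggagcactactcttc

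Each of the 4 windows held a TATA box 30 or 31 bases before the start site, a match present in 12.3% of 32536 promoter windows searched the same way. The NFAT core, present in 55.7% of windows, was found once for Ifng and for Areg, at 2 positions for Il2 and at none for Il17a. Areg had a cyclic AMP response element 61 bases before its start, found in 1.56% of windows, and Il17a had an AP-1 element 244 bases before its start, found in 6.73%. Of the other members, Il13 held 4 NFAT cores and 2 TATA boxes, Il21 held 3 NFAT cores, and Il5 and Csf2 held 2 each. Il4 has 2 windows, of which the upstream one held 5 NFAT cores and the other none. No matches overlapped in the 4 windows shown, while the 2 TATA matches of Il13 overlapped each other. Windows were found for 9 of the 10 members, all but Il10. These matches describe letters only, and binding was not measured.

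After the study's limits on genes and mitochondrial UMIs and removal of doublets called by Scrublet, cells in which Cd3d, Cd3e or Cd3g was detected were kept as T cells, and they made up 98.1% to 99.4% of the barcodes that passed the limits on genes and mitochondrial UMIs, before doublets were removed. The sets held 1007 young meningeal, 605 young choroid plexus, 1408 aged meningeal and 1094 aged choroid plexus T cells, with 2031304 to 3793034 UMIs a library and a median of 2312.5 UMIs a cell in the aged meninges against 2838.5 to 3198 in the other 3. Scrublet marked 0 cells in the aged meninges and 5 of 1106 in the aged choroid plexus, too few for the caller to have worked there, so doublets may remain among the aged cells. Each pair of libraries shared 0 to 3 barcodes. Naive cells were fewer with age: Ccr7, a marker of naive and central memory cells, had a UMI in 59.7% and 54.7% of young meningeal and choroid plexus T cells but in 9.52% and 9.87% of aged ones. Nr4a1, induced within hours by antigen receptor signalling or by handling, stood at 117 and 189 UMIs per 1000000 (CPM) in young and aged meninges but at 3.94 and 14.5 CPM in the choroid plexus.

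Transcripts of Areg, Ifng and Il17a were far more frequent in aged than in young meningeal T cells, and Il2 was also higher. All 10 genes had UMIs in both aged libraries, against 9 in young meninges and 5 in young choroid plexus. Of all 31053 genes, 12965, 12370, 13573 and 13548 had UMIs in the 4 libraries. Young choroid plexus had the fewest cells and UMIs, so genes of low count are missed more often there. Levels are the UMIs of a gene summed over all T cells of a library, per 1000000 UMIs of those cells. A gene was called past the size rule when 20 or more of its UMIs were counted in whichever library had the more and the log2 ratio of (CPM + 10) was at least 1 in either direction.

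**Figure D1:**
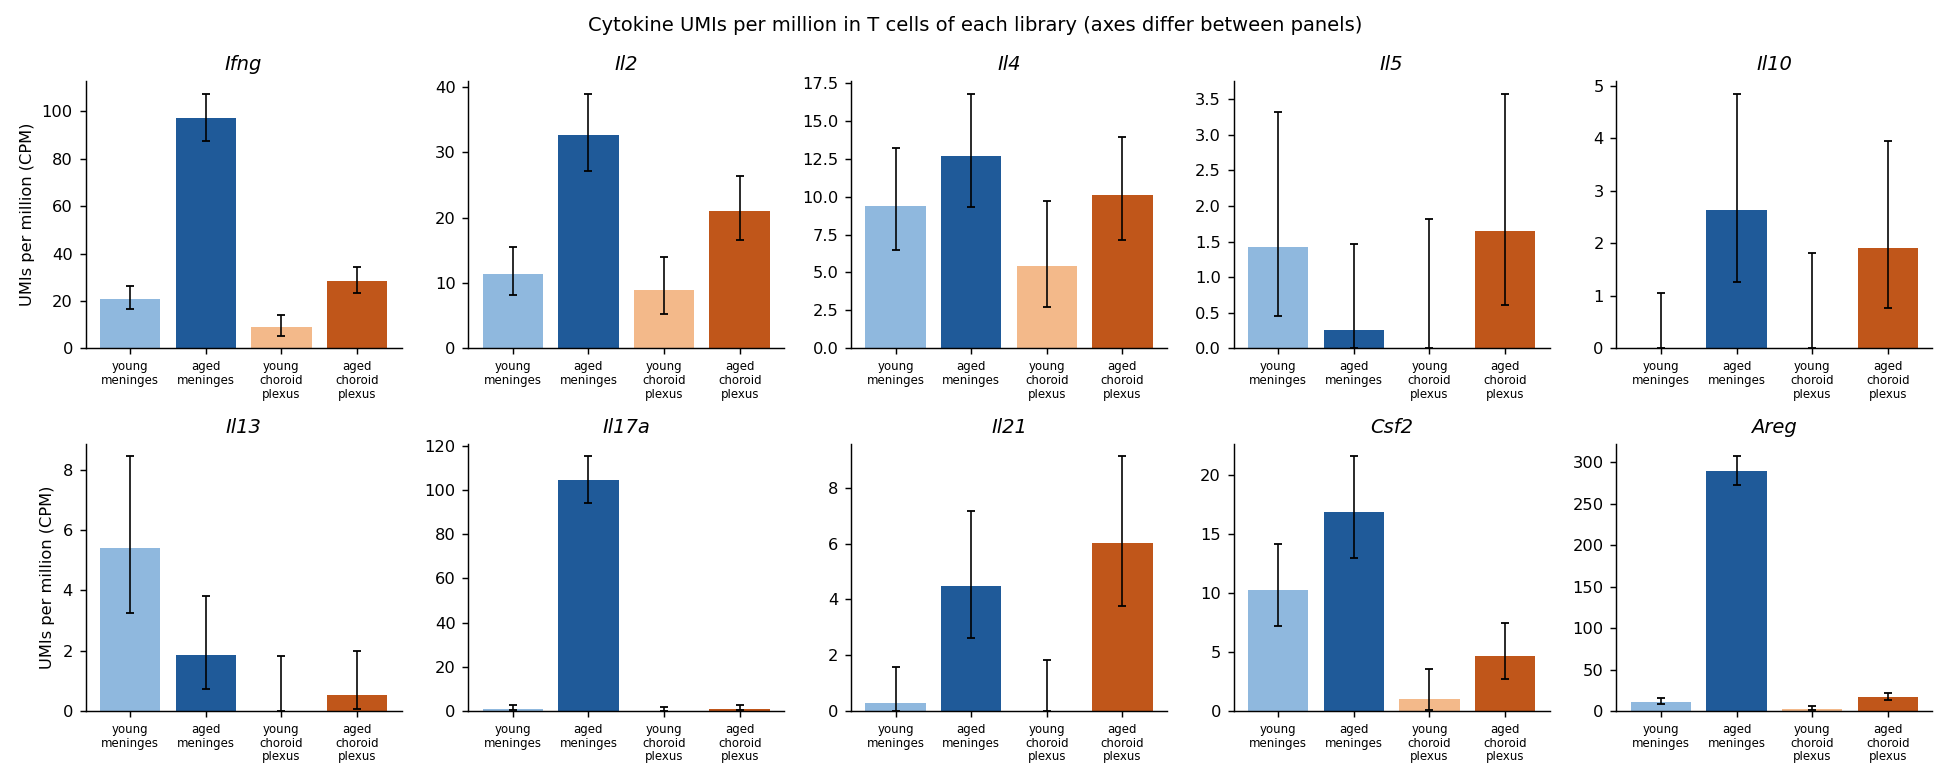
Bars give the level of each cytokine gene in all T cells of the 4 libraries, in CPM on linear axes that start at 0 and differ between the 10 panels, and lines give exact 95% counting intervals. Areg, Ifng and Il17a stood highest in the aged meninges, at 289, 97.0 and 104 CPM, while in young choroid plexus every member lay below 10 CPM.

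Areg, the repair factor, had 40 UMIs in 8 young meningeal T cells (11.4 CPM, 8.12 to 15.5) and 1097 UMIs in 218 aged ones (289 CPM, 272 to 307). The choroid plexus held 5 UMIs in 2 young cells (2.46 CPM) and 64 UMIs in 36 aged cells (17.5 CPM, 13.5 to 22.4). The aged meninges thus lay far above the other 3 libraries. The aged to young ratio was 25.4 (18.6 to 35.8) in the meninges, a log2 ratio of 3.81, and 7.12 (2.90 to 22.7) in the choroid plexus, a log2 ratio of 1.14, and both were past the size rule.

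Ifng, the type 1 cytokine, had 74 UMIs in 31 young meningeal cells (21.0 CPM, 16.5 to 26.4) and 368 UMIs in 198 aged ones (97.0 CPM, 87.4 to 107). Choroid plexus T cells held 18 UMIs in 13 young cells (8.86 CPM, 5.25 to 14) and 104 UMIs in 61 aged cells (28.5 CPM, 23.3 to 34.5). Ifng was higher with age in both tissues, and higher in the meninges than in the choroid plexus at both ages. Its aged to young ratio was 4.61 (3.58 to 6.0; log2 ratio 1.79) in the meninges and 3.21 (1.94 to 5.63; log2 ratio 1.03) in the choroid plexus. The choroid plexus call was narrow: 34 of the 104 aged UMIs came from 1 CD4 cell, and with the highest cell of each library left out the log2 ratio was 0.74, short of the rule.

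Il17a, the type 17 cytokine, had 4 UMIs in 1 young meningeal cell and none in young choroid plexus, where a count of 0 allows up to 1.48 CPM. In aged choroid plexus it had 4 UMIs in 2 cells (1.09 CPM), but in aged meninges 396 UMIs (104 CPM, 94.4 to 115). All 396 were held by 13 of the 1408 cells, so that a level close to that of Ifng rested on 0.923% of the cells, where Ifng was found in 14.1%. The meningeal ratio was 91.8 (35.6 to 339; log2 ratio 3.36), past the size rule. With so few cells, the intervals of the level and of the ratio are too narrow.

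Il2, the T-cell growth factor, was spread over more cells. It had 40 UMIs in 32 young and 124 UMIs in 95 aged meningeal cells (11.4 and 32.7 CPM), a ratio of 2.88 (2.0 to 4.22) with a log2 ratio just under the limit of 1. Among choroid plexus cells 18 UMIs in 18 young cells compared with 77 UMIs in 67 aged cells (8.86 and 21.1 CPM), a ratio of 2.38 (1.41 to 4.22). The choroid plexus log2 ratio, 0.72 as measured, was -0.23 among cells without Ccr7 and Lef1 UMIs. It was -0.18 when each cell was thinned to 1000 UMIs. That draw left Il2 UMIs in only 9 young and 12 aged cells, so the part of depth in the difference is not settled.

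The type 2 cytokines showed no such difference. Il4 had 9.38 and 12.7 CPM in the young and the aged meninges, with 5.42 and 10.1 CPM for the choroid plexus, and both ratios (1.35, 0.848 to 2.17, and 1.87, 0.934 to 4.06) had intervals that included 1. Il13 had 19 UMIs in 2 young meningeal cells, 7 UMIs in 3 aged meningeal cells and 2 UMIs in 2 aged choroid plexus cells, a meningeal ratio of 0.342 (0.121 to 0.849) that rested on few cells. Il5, the eosinophil growth factor, had 5, 0, 1 and 6 UMIs in the 4 libraries.

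Csf2 had 36 and 64 UMIs in young and aged meninges (10.2 and 16.9 CPM; ratio 1.65, 1.08 to 2.55) and 2 and 17 UMIs in young and aged choroid plexus (0.985 and 4.65 CPM; ratio 4.73, 1.12 to 42.2). Neither comparison was past the rule. Il10 and Il21 were close to their detection limit in young mice. No Il10 UMI was seen in either young library, against 10 UMIs in 7 aged meningeal cells, at least 3.09-fold higher when the young library is set at a floor of 3 counts, a bound that leaves out the error of the aged count. The exact interval of that ratio began at 2.08. Aged choroid plexus held 7 Il10 UMIs in 5 cells, and there the interval, from 0.801 upward, included 1. Il21 had 1 UMI in young and 17 in aged meninges (ratio 15.8, 2.47 to 659), and 0 and 22 UMIs in young and aged choroid plexus, at least 4.08-fold higher with age against the floor and with an interval from 3.05 upward.

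In the meninges 6 members had the 20 UMIs needed to be judged, 5 of them in the young library as well. Of these 5, Areg and Ifng were past the rule and Il2, Il4 and Csf2 were not, where 2.37% of 9183 genes judged were higher with age and 0.828% lower. Il17a was judged through its aged count alone. No member had 20 UMIs in young choroid plexus, so the 5 judged there (Ifng, Il2, Il4, Il21 and Areg) came in through the aged library, which favours a higher aged level. Ifng and Areg were past the rule, beside 2.21% of 8998 genes higher and 0.878% lower, and nothing is read from that number. The shares over all genes include genes with many more UMIs than the members.

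**Figure D2:**
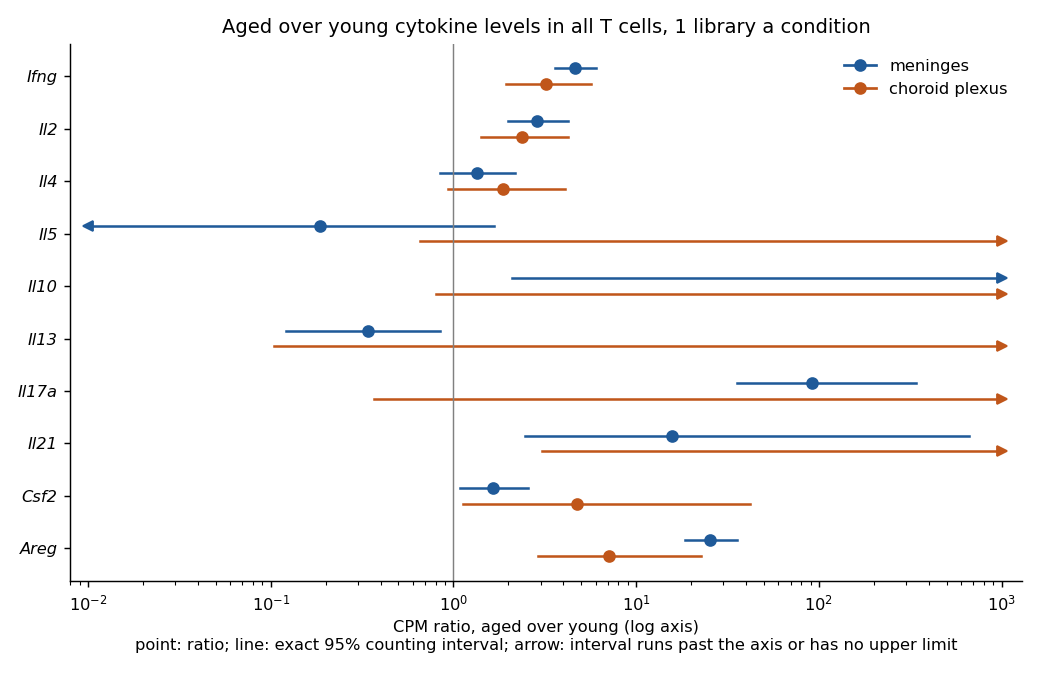
Points give the CPM ratio of aged over young for each cytokine gene in all T cells, on a log axis, in the meninges and the choroid plexus, lines give exact 95% counting intervals, and an arrow marks an interval that runs past the axis or has no upper limit. Areg (25.4 and 7.12), Ifng (4.61 and 3.21) and Il2 (2.88 and 2.38) lay above 1 in both tissues, and no ratio is drawn where the young library had no UMI.

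T cells were split by their own transcripts into CD4 cells (a Cd4 UMI and no Cd8a or Cd8b1 UMI), CD8 cells (a Cd8a or Cd8b1 UMI and no Cd4 UMI) and cells with neither. The study sorted CD4 and CD8 T cells before sequencing. The last is thus a class of detection, not a sorted population, and may hold CD4 and CD8 cells whose transcripts were missed. It was the largest class in 3 of the 4 libraries, with 481, 269, 735 and 358 cells, beside 254, 160, 362 and 230 CD4 cells and 254, 160, 281 and 473 CD8 cells.

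In the aged meninges Ifng stood at 115 CPM in CD4 cells, 59.7 CPM in CD8 cells and 106 CPM in neither-class cells. The young values were 26.0, 15.1 and 23.2 CPM, and the ratios of 4.41 (2.80 to 7.24), 3.94 (2.22 to 7.38) and 4.57 (3.17 to 6.76) were alike within their intervals. Areg stood at 354, 105 and 357 CPM in aged CD4, CD8 and neither-class cells against 19.2, 5.68 and 11.3 CPM in young ones, ratios of 18.4 (11.4 to 32), 18.5 (8.19 to 51.6) and 31.7 (19.6 to 54.7). Areg was thus lower in CD8 cells than in both other classes of the aged meninges, but higher with age in each. The CD8 ratio rested on few cells. All 6 Areg UMIs of young CD8 cells were in a single cell. The highest aged CD8 cells held 32, 19, 12 and 9 of 95 Areg UMIs, so the CD8 interval is too narrow. Young CD4, CD8 and neither-class cells held 17, 6 and 17 Areg UMIs, and young CD8 cells held 16 Ifng UMIs. In these classes Areg, and in CD8 cells Ifng, were judged through their aged counts alone.

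Il2 was past the rule in meningeal CD4 cells (14.7 CPM young, 45.4 CPM aged; ratio 3.1, 1.65 to 6.25) and in neither-class cells (9.29 CPM young, 28.9 CPM aged; ratio 3.11, 1.69 to 6.08). The young cells of these classes held 13 and 14 Il2 UMIs. Both calls were therefore made through the aged count alone, which favours a higher aged level. CD8 cells had 12.3 and 23.2 CPM, a ratio of 1.89 with an interval of 0.901 to 4.10. Of the 396 Il17a UMIs of aged meninges, 114 were in CD4 cells, 281 in neither-class cells, 1 in a cell with both Cd4 and Cd8 transcripts and 0 in CD8 cells. No CD8 cell of either meningeal library had an Il5, Il13, Il17a or Il21 UMI. Il4 had 7 UMIs in 2 aged meningeal CD8 cells and none in young ones. Of the judged genes of each class, 4.23% were higher in CD4 cells, 3.2% in CD8 cells and 3.44% in neither-class cells of the aged meninges.

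Ifng was past the rule in choroid plexus CD4 cells, with 5 UMIs (10.1 CPM) in young and 53 UMIs (73.4 CPM) in aged cells, a ratio of 7.29 (2.94 to 23.4). It was also past it in CD8 cells, with 3 UMIs (4.73 CPM) in young and 36 UMIs (20.7 CPM) in aged cells, a ratio of 4.39 (1.39 to 22.3). Neither-class cells held 11.2 CPM (young) and 11 CPM (aged). The CD4 value includes the cell with 34 UMIs. With the highest cell of each library left out, CD4 cells had fewer than 20 Ifng UMIs, and the call was lost at a log2 ratio of 1.18, against 2.06 with it. The CD8 value was spread over 31 cells. Il2 was past the rule in CD4 cells (12.1 and 34.6 CPM; ratio 2.87, 1.15 to 8.55), Areg in neither-class cells (1 and 31 UMIs; ratio 25.1, 4.18 to 1021), and Il21 had 12 UMIs in aged and none in young CD4 cells, at least 2.75-fold higher against the floor (interval from 1.91 upward). The members past the rule here had fewer than 20 UMIs in the young class and were judged through their aged count alone. The shares of judged genes higher with age were 7.27%, 2.46% and 4.62% in the CD4, CD8 and neither classes.

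The tissues were also compared at each age. They use the same 4 libraries as the comparisons of ages and are not independent of them. In young mice no member was past the rule over all T cells, where 0.738% of 8533 genes were lower and 0.293% higher in the choroid plexus. Young choroid plexus T cells nevertheless had less Ifng (ratio 0.421, 0.237 to 0.713), Areg (0.217, 0.0667 to 0.549) and Csf2 (0.0962, 0.0112 to 0.374) than meningeal ones, and no Il13, while the interval for Il4 (0.577, 0.263 to 1.17) included 1. The Csf2 ratio rested largely on 1 CD4 cell of young meninges, which held 23 of the 36 Csf2 UMIs there. The Areg ratio rested on 8 positive cells in young meninges, 3 of which held 29 of the 40 UMIs, and 2 in young choroid plexus. Its interval is therefore too narrow. In cells with no Nr4a1 UMI, Areg stood at 2.56 CPM in young meninges and 2.49 CPM in young choroid plexus. In aged mice Ifng (0.293, 0.234 to 0.366), Areg (0.0606, 0.0463 to 0.0780) and Il17a (0.0105, 0.00284 to 0.0271) were lower in the choroid plexus and past the rule, where 0.822% of 9249 genes were lower. Il2 (0.645, 0.479 to 0.864) and Csf2 (0.276, 0.151 to 0.477) were lower but not past the rule, and Il4 (0.800, 0.507 to 1.25) and Il21 (1.34, 0.681 to 2.70) had intervals that included 1.

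Naive cells were fewer in both aged libraries, so the levels were also set side by side in cells without Ccr7 and Lef1 UMIs, of which there were 230, 134, 1103 and 844 in the 4 libraries. Among these, Areg had levels of 28.8 CPM (young) and 311 CPM (aged) in the meninges, a ratio of 10.8 (7.02 to 17.6), and Il17a had 0 and 396 UMIs, at least 35.1-fold higher against the floor (interval from 28.4 upward). Ifng had 58.9 CPM (young) and 108 CPM (aged), and its ratio of 1.84 (1.33 to 2.59) was no longer past the rule. The ratio of Il2 was 1.36 (0.834 to 2.31), while those of Il4 (0.429, 0.230 to 0.820) and Csf2 (0.532, 0.340 to 0.847) lay below 1. Over all T cells, 1 cell held 23 of 36 Csf2 UMIs in young and 1 held 46 of 64 in aged meninges, so the Csf2 interval is too narrow. In all, 2 members were past the rule, against 1.5% of all genes higher. Of these, Areg had 21 UMIs in the young cells, while Il17a was judged through its aged count alone.

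Choroid plexus cells without Ccr7 and Lef1 UMIs held 26.3 CPM of Ifng (young) and 34.7 CPM (aged), a ratio of 1.32 (0.720 to 2.65), and the ratio of Il2 was 0.797 (0.422 to 1.64). Areg had 0 UMIs in young and 51 in aged cells, at least 2.96-fold higher against the floor (interval from 2.32 upward). It was the 1 member past the rule there, against 1.76% of all genes higher, and was judged through its aged count alone. In cells without Ccr7 and Lef1 UMIs, Areg was thus still higher with age in both tissues. Ifng was past the rule in neither tissue, and its choroid plexus interval included 1. Naive cells whose Ccr7 and Lef1 transcripts were missed may remain among these cells.

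Because Nr4a1 differed so much between the tissues, levels were also taken in cells with no Nr4a1 UMI. Areg then stood at 2.56, 2.49, 130 and 15.5 CPM in the 4 libraries. Its aged to young ratios were 50.9 (24.5 to 128) in the meninges and 6.22 (2.51 to 19.9) in the choroid plexus, past the rule beside 2.59% and 2.16% of all genes higher. The young cells held 7 and 5 Areg UMIs, so Areg was judged through its aged count alone. Among these cells of aged mice, Areg (0.119, 0.0878 to 0.158), Ifng (0.240, 0.179 to 0.319) and Il17a (0.0147, 0.00397 to 0.0382) were again lower in the choroid plexus than in the meninges and past the rule, as were 0.557% of all genes, whereas Csf2 (1.16, 0.512 to 2.74) did not differ beyond counting error. The aged to young ratio of Ifng in choroid plexus was 2.30 (1.31 to 4.25), with a log2 ratio of 0.66 that was short of the rule.

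A UMI of at least 1 of the 10 genes was found in 9.04%, 6.28%, 35.2% and 18.8% of the T cells of the 4 libraries. Depth differed, so every cell was thinned to 1000 UMIs, leaving out 8, 6, 38 and 21 shallower cells. The shares were then 4.10% (41 of 999), 3.01% (18 of 599), 22.9% (314 of 1370) and 6.90% (74 of 1073). The aged minus young difference was 18.8 percentage points (16.2 to 21.4) in the meninges and 3.89 points (1.66 to 5.97) in the choroid plexus, with intervals combined from the Clopper-Pearson limits of both shares. Cells with both Ccr7 and Lef1 UMIs, which should make few of these cytokines, had thinned shares of 0.858%, 0.758%, 0% and 0%, but only 46 and 44 such cells were left in aged meninges and choroid plexus. They were deeper, at medians of 3326.5, 3093, 3574.5 and 3879.5 UMIs, and their unthinned shares were 1.5%, 0.755%, 8.70% and 13.6%. The shares over all T cells were above these in each library, but in unthinned aged choroid plexus 18.8% stood beside 13.6% of only 44 cells.

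By gene, thinned shares for Areg were 0.501%, 0%, 11.2% and 1.4% in the 4 libraries. For Ifng they were 1.4%, 0.835%, 7.08% and 2.14%, and for Il4 0.701%, 0.501%, 0.949% and 0.839%. Il2 had 1.1%, 1.5%, 3.36% and 1.12%. Its choroid plexus shares rested on 9 young and 12 aged cells of 1 draw. Whether the Il2 share differed with age there at equal depth is therefore not settled. Within aged meninges 24.7% of CD4, 12% of CD8 and 26.1% of neither-class cells held a UMI of any member, against 10.5%, 5.36% and 5.51% in aged choroid plexus.

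How the UMIs were spread over cells set the members apart. Il17a was concentrated: the 13 positive cells of aged meninges held 77, 51, 49, 43, 38, 36, 34, 26, 17, 11, 10, 3 and 1 UMIs, and 4 cells held at least 50% of the total. The highest was a CD4 cell in which Il17a made up 2.15% of 3587 UMIs. Areg also reached high levels, up to 40 UMIs in a cell of 1311 UMIs (3.05%), but over many more cells, with 32 of 218 holding at least 50%. The highest Areg cell of aged choroid plexus held 5 UMIs, and 24 of 36 positive cells held 1.

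**Figure D3:**
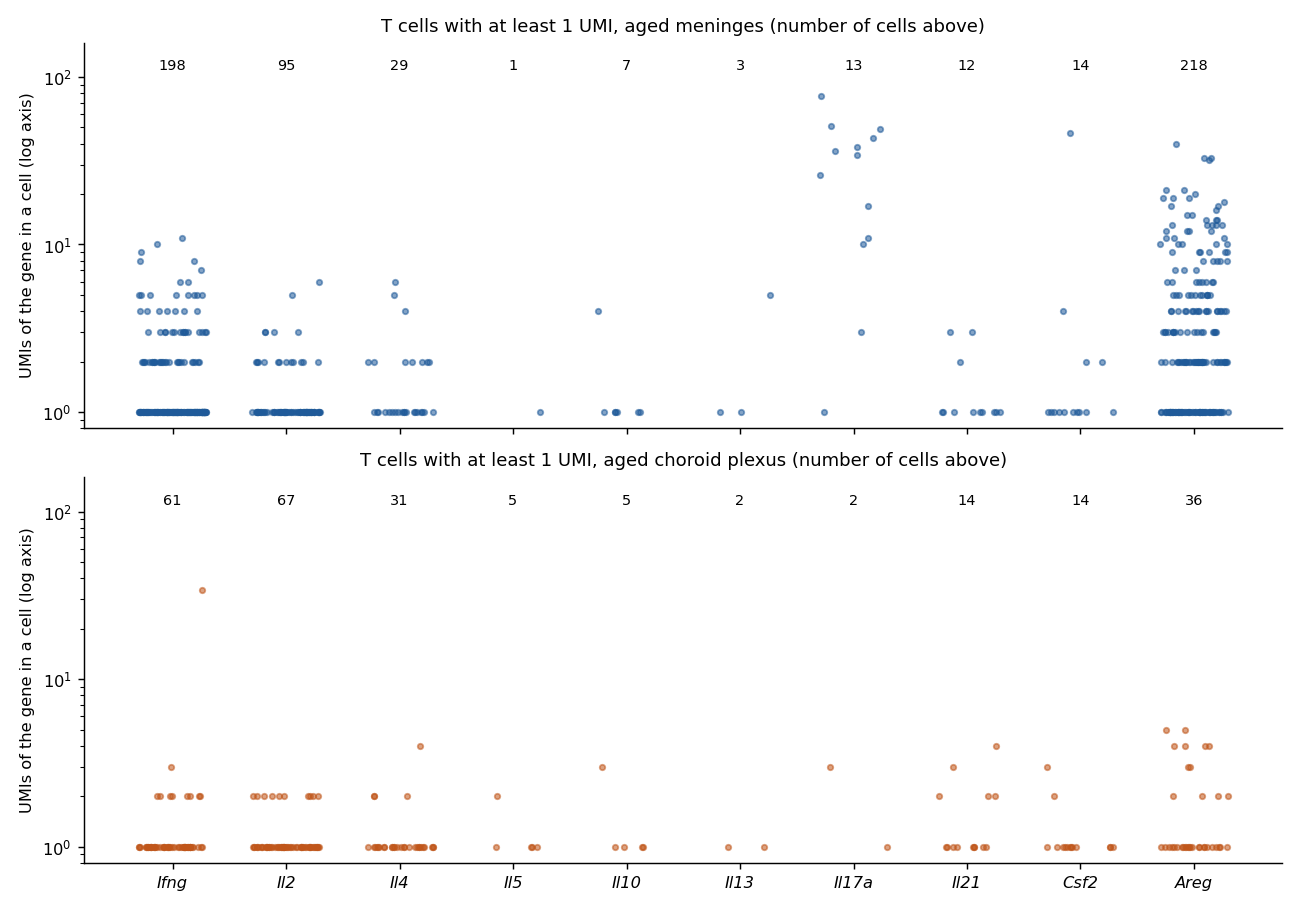
UMIs of each cytokine gene in each positive T cell of aged meninges and aged choroid plexus, on a log axis, where a point is 1 cell and the number of positive cells stands above each gene. Il17a in aged meninges reached 77 UMIs in a cell and Areg 40, while 77 of 95 Il2-positive cells there held 1 UMI.

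Il2 and Ifng were mostly seen as single UMIs. For Il2 77 of 95 positive cells in aged meninges, 57 of 67 in aged choroid plexus and 18 of 18 in young choroid plexus held 1 UMI. For Ifng this was 131 of 198 cells in aged meninges (66.2%), where the highest cell held 11 UMIs. The highest Ifng cell of aged choroid plexus held 34 UMIs and the next 3, and without it the level was 19.2 CPM in place of 28.5 CPM.

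Csf2 and Il13 each rested on a few cells. In aged meninges 46 of 64 Csf2 UMIs were in 1 CD4 cell that also held 26 Il17a UMIs, and in young meninges 23 of 36 were in 1 CD4 cell of 10388 UMIs that also held 8 Ifng UMIs. Without these cells Csf2 had 4.75 CPM (aged) and 3.71 CPM (young), close to the 4.65 CPM of aged choroid plexus. The 19 Il13 UMIs of young meninges were 12 in 1 CD4 cell and 7 in another, and all 5 young meningeal cells with Il5 held UMIs of Il1rl1, the interleukin 33 receptor of type 2 cells. The single Il17a-positive cell of young meninges also held 10 UMIs of Il22 and 3 of Ccr6, both type 17 genes.

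Few cells held transcripts of more than 1 member. At least 2 members were found in 14, 1, 83 and 28 cells of the 4 libraries, or 1.39%, 0.165%, 5.89% and 2.56% of T cells. After thinning these were 3, 0, 24 and 3 cells. Cells with 2 or more members were deeper than cells with none, with medians of 3526 against 2180 UMIs in aged meninges and 4350.5 against 2699.5 UMIs in aged choroid plexus, and the part of depth in their number is not separated in the unthinned counts.

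In aged meninges 37 of 198 Ifng-positive cells also held Areg (18.7%, 13.5 to 24.8), against 15% (13 to 17.1) of the other T cells, a difference within counting error. Ifng with Il2 was found in 16 cells, 8.08% of Ifng-positive and 6.53% of other cells. Areg with Il2 was found in 7 of 218 Areg-positive cells (3.21%, 1.3 to 6.5) and 7.39% (5.97 to 9.03) of the others, shares whose intervals overlapped. Il17a and Csf2 were found together beyond counting error, as 4 of 13 Il17a-positive cells held Csf2 (30.8%, 9.09 to 61.4), against 0.717% of the rest. After thinning 3 of 12 Il17a-positive cells held Csf2, against 7 of 1358. Of the 7 Il10-positive cells 4 held Ifng (57.1%, 18.4 to 90.1), against 13.8% of other cells, and 1 of 3 did after thinning. The CD4 cell with the most Il10 UMIs, 4, also held 10 Ifng, 9 Areg and 2 Foxp3 UMIs. Il4 was found in 2 of 3 Il13-positive cells (66.7%, against 1.92%), none of which kept an Il13 UMI after thinning.

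Of the Il10-positive cells of aged choroid plexus, 3 of 5 held Il21 (60.0%), against 1.01% of the others, but after thinning 0 of 3 did. Il4 was found in both of the 2 Il13-positive cells and in 2 of 5 Il5-positive cells, and after thinning in 1 of 2 and 0 of 2. The Il13-positive cells were deep, with a median of 7733 against 2837.5 UMIs, and 1 of them, with 11094 UMIs, held both Cd4 and Cd8 transcripts as well as Il2, Il10, Foxp3 and Tbx21, in a library where doublets may remain. Areg was found in 5 of 31 Il4-positive cells (16.1%), against 2.92% of other cells, but the Il4-positive cells were deeper, with a median of 4614 against 2827 UMIs. After thinning 0 of 9 Il4-positive cells held Areg, against 15 of 1064 others. Cells with both genes of these pairs held few UMIs of each, so thinning can lose most pairs. A count of 0 after thinning therefore decides nothing about them.

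The cells that held a member were then described by markers of T-cell subsets. Shares of cells with a marker UMI are given as measured. For some markers the level in CPM, which does not depend on depth in the same way, or the share after thinning is given too. Where only the measured share is given, the part of depth in the difference is not separated. Positive cells are chosen by having a UMI, so they tend to be deeper.

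Areg-positive cells of aged meninges carried regulatory T-cell markers. Foxp3, the transcription factor that defines regulatory T cells, was found in 33.5% of the 218 Areg-positive and 5.71% of the 1190 Areg-negative cells (178 and 34.8 CPM). For Ikzf2 the shares were 64.2% and 19.4%, for Ctla4 44.5% and 17.5%, and for Il1rl1 13.8% and 2.10%. Gata3, a factor of type 2 and tissue regulatory cells, was found in 33% and 15%. The cytotoxic genes Nkg7 (19.3% and 55.2%) and Gzmk (13.3% and 31.6%) went the other way, and Nr4a1 was found in 52.3% and 19.5%. Median depth was close, at 2451.5 and 2293.5 UMIs.

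In aged choroid plexus the 36 Areg-positive cells had similar markers at lower Areg levels. Foxp3 stood at 83.3 CPM in them and 25.1 CPM in the 1058 others, Ikzf2 at 458 and 154 CPM, Il1rl1 at 135 and 25.4 CPM and Gata3 at 151 and 72.2 CPM. Shares of cells with a UMI were 22.2% and 6.05% for Foxp3 and 33.3% and 5.67% for Il1rl1, at medians of 4383.5 and 2828 UMIs. After thinning they were 8.57% and 2.89% for Foxp3 and 14.3% and 2.60% for Il1rl1.

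**Figure D4:**
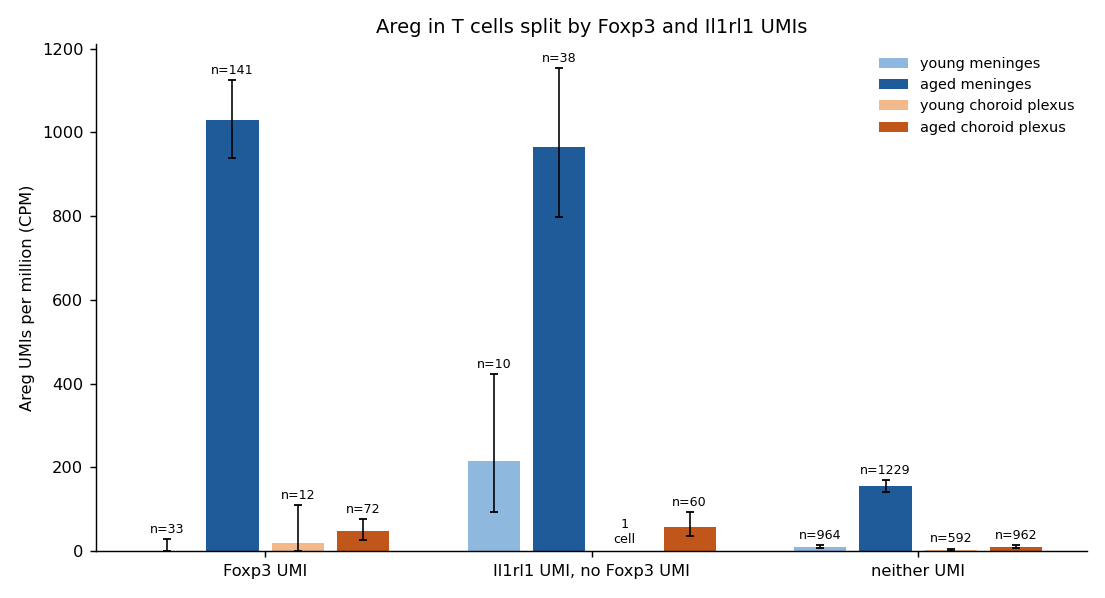
Areg level in CPM, with exact 95% counting intervals, in Foxp3+ T cells, in Il1rl1+Foxp3- T cells and in T cells with neither, for each library (sets of under 10 cells are given as a number only). In aged meninges Areg reached 1030, 964 and 154 CPM in these sets, and in aged choroid plexus 46.9, 58.2 and 9.99 CPM.

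Areg was then measured within these sets. In aged meninges it stood at 1030 CPM (940 to 1125) in 141 Foxp3+ cells, of which 73 were positive, at 964 CPM (799 to 1154) in 38 Il1rl1+Foxp3- cells and at 154 CPM (141 to 168) in 1229 cells with neither. Values in aged choroid plexus were 46.9 CPM (26.8 to 76.2) in 72 Foxp3+ cells, 58.2 CPM (34.5 to 91.9) in 60 Il1rl1+Foxp3- cells and 9.99 CPM (6.74 to 14.3) in 962 others. Each set thus held more Areg in aged meninges than in aged choroid plexus, and the Areg difference between the tissues was seen among Foxp3+ cells as well as outside them. Foxp3+ cells held 44.2% of all Areg UMIs in aged meninges and 25.0% in aged choroid plexus.

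The same sets were small in young mice. None of 33 Foxp3+ cells of young meninges held Areg (interval 0 to 28.7 CPM), and 1 of 12 did in young choroid plexus. Foxp3+ cells without an Nr4a1 UMI of the aged mice held 727 CPM (610 to 861) in meninges and 28.5 CPM (12.3 to 56.2) in choroid plexus. Cells with an Nr4a1 UMI held more Areg than cells without one in both aged tissues, at 663 and 130 CPM in the meninges and 86.2 and 15.5 CPM in the choroid plexus. The part of receptor signalling or of handling in the Areg level was not tested.

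**Figure D5:**
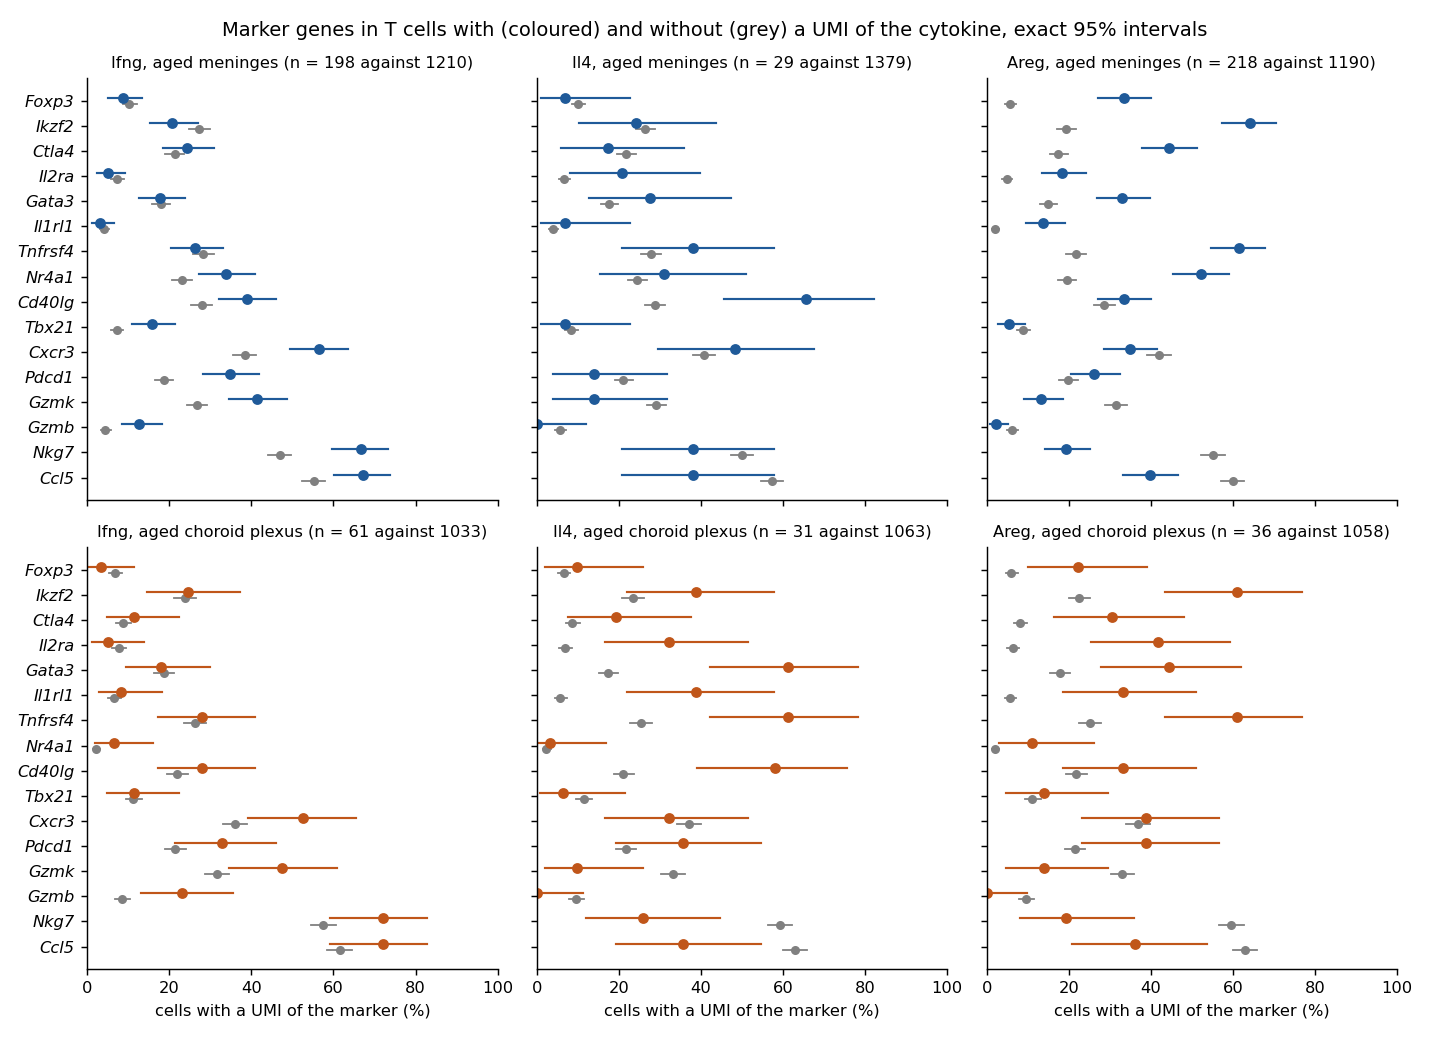
Share of T cells with a UMI of each of 16 marker genes, in percent with exact 95% intervals, among cells positive (coloured) and negative (grey) for Ifng, Il4 and Areg in aged meninges and aged choroid plexus. Areg-positive cells held more Foxp3, Ikzf2 and Il1rl1 (33.5%, 64.2% and 13.8% in aged meninges) and less Nkg7 than Areg-negative cells.

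Ifng-positive cells carried type 1 and cytotoxic markers. In aged meninges Cxcr3, a chemokine receptor of type 1 cells, was found in 56.6% of positive and 38.3% of negative cells, and Tbx21, which encodes the type 1 factor T-bet, in 15.7% and 7.11%. The shares for Nkg7 were 66.7% and 46.9%, for Gzmb 12.6% and 4.38%, and for Pdcd1, an inhibitory receptor, 34.8% and 18.6%. Positive cells were deeper, at medians of 2638.5 and 2261.5 UMIs, and Gzmb in CPM differed less than its shares (110 and 64.3 CPM). In young meninges the contrast was wider, with Cxcr3 in 58.1% of 31 positive and 14.8% of 976 negative cells and Nkg7 in 83.9% and 30.1%, while the naive marker Ccr7 was found in 19.4% and 61.0%. Gzmb in aged choroid plexus stood at 318 CPM in Ifng-positive and 62.3 CPM in negative cells. Foxp3+ cells of aged meninges were not free of Ifng: it was found in 17 of 141, at 106 CPM, against 95.7 CPM in Foxp3- cells.

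Il2-positive cells of aged meninges held more Cxcr3 (432 and 245 CPM in positive and negative cells) and more Cd40lg, which encodes the ligand that helper cells present to B cells (339 and 184 CPM), and less Ikzf2 (86.4 and 229 CPM). Il2 itself stood at 6.37 CPM in Foxp3+ and 36.4 CPM in Foxp3- cells of aged meninges. Il4-positive cells of aged choroid plexus held more Gata3 (227 and 68.9 CPM) and Il1rl1 (157 and 25.0 CPM) and less Nkg7 (367 and 1250 CPM). Gata3 had a UMI in 61.3% and 17.4% of them, and in 32.3% and 7.87% after thinning. Il4 stood at 48.5 CPM in Il1rl1+Foxp3- cells of aged choroid plexus, where 11 of 60 were positive, and at 5.99 CPM in cells with neither marker.

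Il17a-positive cells of aged meninges held type 17 genes at low counts. The chemokine receptor Ccr6 was found in 30.8% of the 13 and 0.932% of the other cells, and Il17f in 23.1% and 0.143%. The cytotoxic gene Nkg7 had 174 and 1127 CPM in them and the other cells. Tcrg-C1, a gamma-delta receptor constant gene, had a UMI in 2 of the 13 cells (15.4%, against 1.08%). No UMI of Trdc, the delta chain constant gene, or of the type 17 marker Il23r was found in any of the 13. Il21-positive cells held the inhibitory receptor Pdcd1, which follicular helper cells also express, in 58.3% of 12 cells in aged meninges against 20.6% of the others, and in 78.6% of 14 cells in aged choroid plexus against 21.3%.

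Across all genes, those highest in positive relative to negative cells were ranked by the log2 ratio of (CPM + 50) averaged over libraries with at least 20 positive cells. For Areg, over 2 aged libraries and 1198 candidate genes, they were Cd83 (1.87), Gadd45b (1.71), Tnfrsf4 (1.65), Cd81 (1.47), Ikzf2 (1.45), Zfp36, Penk, Dusp1, Ctla4 and Nfkbia. For Ifng, over 3 libraries and 857 candidates, they were Ccl4 (3.21), Gzma (1.59), Gzmb (1.37), Rgs1, Xcl1 (1.18), Tnf (1.16), Bcl2a1d, Ccl5, Dusp2 and Bcl2a1b. Ccl4, a chemokine of cytotoxic cells, was higher in positive cells of each of the 3, at log2 ratios of 5.55 in young meninges, 2.94 in aged meninges and 1.14 in aged choroid plexus, where Gzmb (1.71), Tnf (1.48) and Rgs1 (1.23) stood above it. For Il2 the first were S100a4 (0.83), Cxcr6 (0.80) and Cd40lg (0.75) among 741 candidates, and for Il4 Id2 (0.91), Cd40lg (0.89) and Cxcr6 (0.87) among 404. Young meninges gave the largest part of these averages for Ifng, Il2 and Il4. The log2 ratios follow in the order young meninges, aged meninges and aged choroid plexus. For Ifng, Gzma had 3.55, 0.36 and 0.85, Gzmb 1.91, 0.49 and 1.71 and Xcl1 2.46, 0.43 and 0.66. For Il2, S100a4 had 1.98, 0.20 and 0.30. For Il4, Id2 had 2.15, 0.55 and 0.022, Cd40lg 1.36, 0.91 and 0.39 and Cxcr6 2.21, 0.73 and -0.34.

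Fewer related genes were past the rule. Of 20 other T-cell cytokines 10 had enough UMIs to be judged in each tissue, and 0 were past the rule in the meninges, where Tnf was closest (48.0 CPM young, 104 CPM aged; log2 ratio 0.97). The choroid plexus had 1, Ebi3, a subunit shared by several cytokines (0.985 and 18.3 CPM). Ebi3 had fewer than 20 UMIs in the young cells and was judged through its aged count alone, which favours a higher aged level. Il22 had 10 UMIs in young and 0 in aged meninges, and Il17f 0 and 11. Among the receptors of the 10 cytokines, 1 of 10 judged was lower with age in the meninges, the interferon-γ receptor chain Ifngr2 (60.0 and 9.49 CPM), and in the choroid plexus 2 of 11 were higher, Ifngr1 (178 and 412 CPM) and Il10ra (20.7 and 61.9 CPM). The shares over all genes given above, 2.37% and 2.21% higher and 0.828% and 0.878% lower, are those to read these numbers against.

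Of 18 judged transcription factors of cytokine genes, 7 were past the rule and higher in aged meninges and 5 in aged choroid plexus, beside 2.37% and 2.21% of all genes. Maf (34.7 and 213 CPM in young and aged meninges), Ikzf2 (45.5 and 217 CPM), Eomes (9.66 and 46.9 CPM) and Foxp3 (17.3 and 59.6 CPM) were among them in both tissues. In the choroid plexus Foxp3 had 18 UMIs in young cells (8.86 CPM) and 103 in aged ones (28.2 CPM). It was judged there through its aged count alone, which favours a higher aged level. The young choroid plexus counts of the other factors are not given here, so nothing is read from the number past the rule there. Prdm1 and Irf4 joined them in the meninges and Batf in the choroid plexus. Tbx21 (26.1 and 35.3 CPM) was not past the rule in the meninges.

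Genes used as markers of other cell types had UMIs too, as had gamma-delta receptor genes, which mark T cells, and some stood above the cytokines. Markers of mast cells and basophils, which can make Il4 and Il13, had 0 to 2 UMIs a library, with at least 5 of the 7 genes at 0 in each, and fibroblast markers had 0 to 3 UMIs. B-cell markers were found in 47.6%, 45.0%, 25.9% and 28.1% of T cells of the 4 libraries (139 to 237 CPM), and in aged meninges in 34.1% of cells with a member and 21.5% of cells without. Natural killer cell markers stood at 24.5 to 37.4 CPM, and myeloid markers at 6.82 to 40.5 CPM. The natural killer cell markers were found in 18.7%, 10.5%, 2.83% and 6.31% of cells with a member in the 4 libraries. The shares of cells without a member were 3.82%, 2.82%, 4.16% and 6.64%. Cells with a member thus held these markers more often in the young libraries but not in the aged ones. Gamma-delta receptor genes had UMIs in 3.28%, 3.14%, 6.18% and 17% of T cells, and haemoglobin transcripts in 18.8% of aged meningeal and 6.06% of young meningeal T cells, at 343 and 218 CPM against 1.48 and 1.64 CPM in the choroid plexus. Endothelial markers (Cldn5, Pecam1 and Kdr) had UMIs in 16.8%, 14.5%, 4.83% and 6.31% of T cells. Cldn5 was at 0 in each library and Kdr in each but aged choroid plexus, so elsewhere these UMIs were of Pecam1 alone and do not show endothelial cells. Choroid plexus epithelial markers had 57.6 and 8.76 CPM in the young and aged choroid plexus. Their part in the cytokine levels was not tested.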

How the data were processed

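The authors aligned reads to mm10 and deposited raw UMI counts per gene and barcode for each of the 4 libraries. The submitters' processing notes name Cell Ranger 5.1.0 and STAR, whereas the matrix headers give software version 3.1.0, and which applied was not settled. Barcodes with 200 to 7000 genes and at most 5% mitochondrial UMIs were kept, following the study's methods, and doublets were removed with Scrublet in scanpy 1.11.5. Counts were summed over T cells and scaled to 1000000 UMIs (CPM). Python 3.11.15, numpy 2.4.6, scipy 1.17.1, pandas 2.3.3 and matplotlib 3.10.9 were used.

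With 1 library a condition no test across mice exists, and the study's Wilcoxon test over cells was not repeated. The size rule (20 UMIs, log2 ratio of 1 with 10 CPM added) was applied to all genes and was tested on simulated data. The simulated sums were independent Poisson draws for each gene. They cannot show how the rule behaves where few cells hold most UMIs of a gene or where mice differ. Of the genes outside the 10 members, up to 6 past the rule were named for each list in each tissue. For each member with 20 positive cells in a library, genes were named from the 10 highest in positive cells. Other genes, such as Tnf, Il22, Il17f and Tbx21, were named after their values were seen. Thinning used 1 seeded draw. Lists described cytokines, receptors, transcription factors and subset markers. The members and lists were chosen with earlier results of these data known.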

Additional observations from a re-analysis of the deposited data

Results flagged for a closer look

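No group held 4 to 10 samples, so no library could be judged against others of its kind. A few members had log2 ratios of opposite sign in the 2 tissues or ages, on very low counts, and these differences were not tested. For aged over young, Il5 was -0.15 (meninges) and 0.22 (choroid plexus), on 0 to 6 UMIs a library, and Il13 was -0.38 and 0.08, on 0 to 19 UMIs. For choroid plexus over meninges, Il5 was -0.19 in young and 0.18 in aged mice, and Il21 was -0.040 and 0.15.

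Barcodes outside the T-cell sets also held member transcripts. In young meninges 1 barcode that failed the limits held 12 Il5 UMIs, more than the 5 of all T cells there, and 3 called doublets held 5 Il4 UMIs. In aged meninges the 259 barcodes that failed the limits held 53 Areg UMIs in 17 barcodes (135 CPM), 43 Il17a UMIs in 1 barcode, 9 Ifng UMIs in 6 and 9 Il21 UMIs in 6. Another 28 barcodes without a Cd3 UMI held 17 Areg UMIs in 5 (217 CPM, against 289 CPM in T cells). In aged choroid plexus 171 failing barcodes held 7 Ifng UMIs in 5, 4 Il10 UMIs in 1 and 6 Il21 UMIs in 4 (22.1 CPM, against 6.02 CPM in T cells).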

How the results depend on the processing

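No paired analysis was possible because each condition has 1 library, and no replicate could be left out. In the meninges the number of members past the size rule was 3 and lay between 2 and 4 under each alternative run. Areg and Il17a were among them each time, and Ifng each time except in cells without Ccr7 and Lef1 UMIs. In the choroid plexus the number was 2. It was 4 with 1 CPM added (Ifng, Il2, Il21 and Areg), 0 with 50 CPM added, and 1 (Areg) with doublets kept, with median of ratios size factors, without each member's highest cell, in cells without Ccr7 and Lef1 UMIs and in cells without Nr4a1 UMIs. The last 2 sets were chosen after seeing the data. The log2 ratio of Ifng there, 1.03 as reported, was 0.97, 0.95, 0.74, 0.30 and 0.66 under these 5 and 0.41 with 50 CPM added.

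The aged minus young share of cells with a member, 18.8 points in the meninges, was 26.1 without thinning, 25.1 at 2000 UMIs, 7.66 with at least 2 UMIs, 12.8 without Ccr7 and Lef1 cells and 12.9 without Nr4a1 cells. In the choroid plexus 3.89 points became 12.5, 8.48 and 0.932 under the first 3. The choroid plexus values without Ccr7 and Lef1 cells and without Nr4a1 cells are not given here. Whether the difference in share holds in those cells is therefore not shown. Without Ccr7 and Lef1 cells the intervals of the Ifng ratio (0.720 to 2.65) and the Il2 ratio (0.422 to 1.64) there included 1. Of 660 further values for single genes, 562 kept their side of the rule or stayed within counting error, 61 moved beyond it, 30 fell short of the rule, 7 passed it and 0 of those past the rule changed sign. The 562 include genes too low to be judged, such as Il5 in meningeal CD8 cells with 0 UMIs at both ages. Such values could hardly change, so the number does not measure how stable the calls are. Counts below about 20 UMIs limit Il5, Il10, Il13 and Il21.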
